A study of Mus musculus with 2 samples.

Results

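The cholesterol genes described here are 31 genes of cholesterol synthesis, its control, and the transport, storage and efflux of sterols. They were listed by function, with earlier results of these data known, and the probes of each were found by matching the transcript accession of every non-control spot to RefSeq mouse genes. A probe was found for 30 of the 31 genes, with 49 probes in all, out of 23462 named genes on the array. No probe matched Acat2, which encodes the cytosolic thiolase that joins acetyl-CoA units at the entry of the pathway. Its RNA is not analysed here, and Acat2 is counted only among the promoters. Of the 30 genes, 29 were well above background on both arrays, and Abca1 was so on the prednisolone array alone. Uptake is represented by Mylip and Npc1 rather than by lipoprotein receptors, so the list speaks mainly of synthesis, control and efflux.

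The series holds 2 arrays of mouse CD8 T cells, 1 for each condition. In the prednisolone group, C57BL/6 spleens gave naive CD8 T cells (low for CD44 and high for CD62L), which were activated over 2 days. Plate-bound anti-TCR-β antibody was used at 3 µg/ml with anti-CD28 antibody at 1 µg/ml, and the medium held interleukin-2 at 10 ng/ml and prednisolone, a synthetic glucocorticoid, at 1 µM. The vehicle group had the same strain, tissue, antibodies and interleukin-2, and vehicle in place of the drug. Both were then moved to a new plate with interleukin-2 for 3 days, and RNA was taken on day 5, from which 100 ng was labelled with Cy3. The protocol names prednisolone for the first 2 days and not for the 3 days that followed, so values given as with prednisolone are those of cells that had been stimulated in its presence. The sources used here do not say how many mice or cultures stand behind each array.

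Cells build cholesterol from acetyl-CoA. The first steps make mevalonate and turn it into farnesyl pyrophosphate, which also feeds protein prenylation, ubiquinone and dolichol, and the later steps run through squalene and lanosterol to cholesterol. When sterols run low in the endoplasmic reticulum, the escort protein SCAP carries the membrane-bound factors SREBP-1 and SREBP-2 to the Golgi, where proteases release them to switch on the enzyme genes, and INSIG proteins hold SCAP back when sterols are plentiful. When oxysterols accumulate, the liver X receptors (LXR) switch on exporters such as ABCA1 and ABCG1 and the ubiquitin ligase MYLIP, which lowers lipoprotein uptake. T cells are known to raise sterol synthesis and restrain LXR when they start to divide.

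With prednisolone, 16 of 17 measured enzyme genes of cholesterol synthesis were lower than with vehicle. The listed exporter genes Abcg1, within 2-fold, and Abca1, faint and well above background with prednisolone only, were higher. Values are log2 differences, prednisolone minus vehicle, of the processed signal after subtracting the 75th percentile of each array, and ± is the scanner software's own error for the spots. That error is close to a fixed 10.0% of the signal per spot and covers neither the labelling of the RNA nor the spread between cultures. With 1 array per group no difference was tested, and a gene was counted when it was at least 2-fold apart. Among all 12901 genes measured on both arrays, 6.73% were at least 2-fold lower and 5.84% at least 2-fold higher. Of the 29 cholesterol genes measured on both arrays, 8 (27.6%) were at least 2-fold lower and 0 at least 2-fold higher. All 8 were enzyme genes, out of 17 enzyme genes measured (47.1%). At a 1.5-fold threshold 15 of the 29 (51.7%) were lower, where 15.3% of all genes were, and 2 (6.90%) were higher, where 14.5% of all genes were. Values below 0 were seen for 26 of the 29 (89.7%), against 49.8% of all genes. The median over the 29 was −0.59, where that of all genes was 0.00320.

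**Figure D1:**
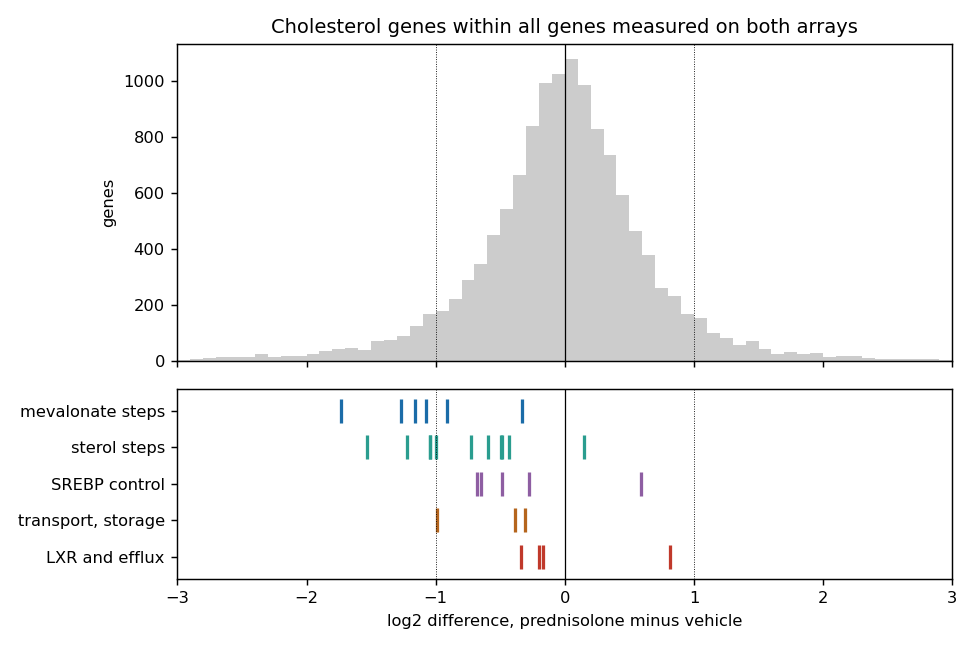
The upper panel is a histogram of the log2 difference (prednisolone minus vehicle, x axis) of 12901 genes measured on both arrays, with the number of genes on the y axis, drawn from −3 to 3. The lower panel marks each cholesterol gene by its role, and dotted lines stand at a 2-fold difference; the mevalonate and sterol enzymes lie left of 0 except Ebp at 0.15, while Scap (0.59) and Abcg1 (0.81) lie right of it.

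The scale matters for these counts. Scaling both arrays on 8 spike-in control probes adds 0.24 to every difference and moves the median of all genes to 0.24. On that scale 3 of the 29 genes were at least 2-fold lower (4.12% of all genes) and 1, Abcg1, was at least 2-fold higher (9.72% of all genes). Hmgcs1, Msmo1 and Fdps stayed at least 2-fold lower on it.

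The culture and the drug response were checked on marker genes. All 8 CD8 T cell markers were well above background on both arrays, with a summed signal of 591 times the 75th percentile with prednisolone and 744 times with vehicle. Lck (−0.34 ± 0.14) was the brightest of them with prednisolone and Cd3d (−0.61 ± 0.14) with vehicle. The median difference of the 8 was −0.44 (−0.20 after spike-in scaling), with 7 below 0, where 49.8% of all genes were. Of the 8, 3 (37.5%) were at least 1.5-fold lower, where 15.3% of all genes were. The glucocorticoid-induced genes Klf9 (3.23 ± 0.20), Fkbp5 (2.57 ± 0.14), Tsc22d3 (1.45 ± 0.14) and Dusp1 (1.34 ± 0.20) were at least 2-fold higher, and Per1 was 0.40 ± 0.20. Of 9 myeloid markers, 4 were well above background on each array, with summed signals of 10.4 with prednisolone and 11.6 with vehicle. Of the 9, Adgre1, Fcgr1, Lyz2 and Mertk did not stand well above background with prednisolone or with vehicle, Itgam was the brightest at 0.02 ± 0.22, Cd68 was −2.43 ± 0.15 and Cd74 was at least 4.63-fold lower. B cell markers were well above background for 2 of 5 on each array, with summed signals of 4.25 and 2.74 for prednisolone and vehicle and Cd79b the brightest. Markers of NK cells gave 4 of 5, with summed signals of 97.8 and 156 for prednisolone and vehicle. Nkg7 was the brightest, and without it the sums were 1.57 and 7.43. Eomes was −2.38 ± 0.20, and Ncr1 did not stand well above background with prednisolone or with vehicle. Klrb1c (0.07 ± 0.32) and Klre1 (−0.03 ± 0.24), named after their values were seen, were faint, at most 42.2 units on either array. Markers of erythroid cells gave 1 of 4, Hba-a1, with summed signals of 3.67 and 0.266 for prednisolone and vehicle and a difference of 3.97 ± 0.05. The part of any such cell in the differences below was not tested. In RNA from a whole culture, fewer cells that express a gene and less RNA per cell cannot be told apart.

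The early steps, from acetoacetyl-CoA to farnesyl pyrophosphate, showed the lowest median of the 5 roles, −1.12 over 6 genes, with 4 of them at least 2-fold lower. All 6 lay below 0, where 49.8% of all genes did, and 6.73% of all genes were at least 2-fold lower. Hmgcs1 encodes HMG-CoA synthase, which makes HMG-CoA, ahead of mevalonate in the pathway. Its single probe had a processed signal of 8450 intensity units with prednisolone and 29082 with vehicle, a difference of −1.73 ± 0.20, or 3.33-fold lower. It was the lowest of the 29 genes and lay at percentile 1.87 of all genes measured on both arrays.

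The next steps act on mevalonate. The gene of the reductase that makes mevalonate from HMG-CoA is not on the list, so the chain described here is not complete. Mvk, the gene of mevalonate kinase, had 3695 units with prednisolone and 7625 with vehicle on its brighter probe, and 204 and 376 units on its dimmer probe. Its mean difference of −0.92 ± 0.14 lay just inside 2-fold. Pmvk, the gene of phosphomevalonate kinase, had 7102 and 3276 units with prednisolone on its 2 probes, against 16046 and 7738 units with vehicle. The probes gave −1.13 and −1.19, so the gene was 2.23-fold lower (−1.16 ± 0.14). Mvd, whose decarboxylase makes isopentenyl pyrophosphate, had 949 units with prednisolone and 2072 with vehicle (−1.08 ± 0.20). These 3 genes thus lay between −1.16 and −0.92.

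Idi1 stood apart from its neighbours in the chain. It encodes the isomerase that makes dimethylallyl pyrophosphate, and its probe had 5359 units with prednisolone and 6976 with vehicle (−0.33 ± 0.20, and −0.09 after spike-in scaling). Fdps, the gene of farnesyl pyrophosphate synthase, had 13360 units with prednisolone and 33286 with vehicle (−1.27 ± 0.20, 2.41-fold lower). The local background of its only spot carried an outlier flag on the prednisolone array, at 31 units on each array, far under the signal.

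**Figure D2:**
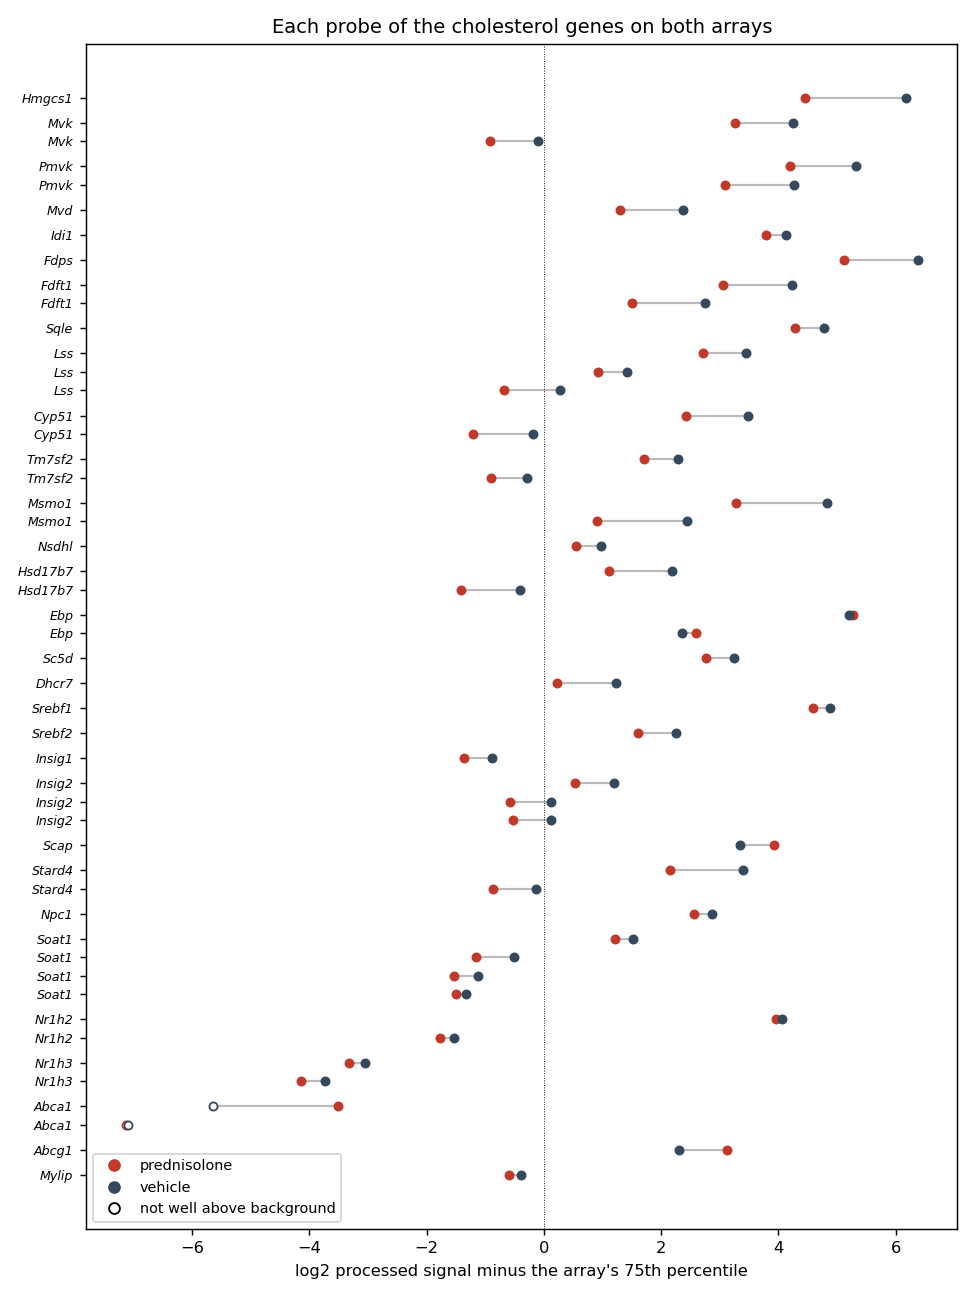
Each row is 1 probe of a cholesterol gene, in pathway order from Hmgcs1 at the top, and the x axis is log2 of the processed signal minus the 75th percentile of the array; red points are the prednisolone array and dark points the vehicle array. Red lies left of dark in all rows but those of Ebp, Scap, Abca1's brighter probe and Abcg1, and open circles mark the 3 Abca1 values that were not well above background; positions of different probes are not comparable as levels.

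The sterol steps, from farnesyl pyrophosphate to cholesterol, had a median of −0.73 over 11 genes, with 4 at least 2-fold lower and 10 below 0. Of all genes, 6.73% were at least 2-fold lower and 49.8% lay below 0. Fdft1, the gene of squalene synthase, takes farnesyl pyrophosphate into the sterol branch. Its 2 probes had 3221 and 1091 units with prednisolone, against 7562 and 2698 units with vehicle, a mean difference of −1.22 ± 0.14. The local background of both its spots carried an outlier flag on both arrays. Sqle, the gene of squalene epoxidase, which is a rate-limiting enzyme of the branch, was lower by less, with 7573 units with prednisolone and 11030 with vehicle (−0.49 ± 0.20). Lss, which closes the ring to lanosterol, was −0.73 ± 0.12, and its 3 probes ran from −0.95 to −0.50.

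Lanosterol is then trimmed of its methyl groups. Cyp51, the gene of the 14α-demethylase, had 2066 and 167 units with prednisolone on its 2 probes, against 4445 and 353 units with vehicle (−1.04 ± 0.14). Tm7sf2, which encodes a sterol 14-reductase, had 1261 and 208 units with prednisolone, against 1944 and 329 units with vehicle (−0.59 ± 0.14). Msmo1 encodes the methylsterol monooxygenase that starts removal of the methyl groups at carbon 4. Its brighter probe had 3763 units with prednisolone and 11312 with vehicle, and its dimmer probe 727 and 2173 units. The probes gave −1.54 and −1.53, so Msmo1 was 2.90-fold lower (−1.53 ± 0.14), the lowest of the sterol steps.

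The partners of Msmo1 in the same removal were lower by less. Nsdhl, the gene of the decarboxylating sterol dehydrogenase, had 563 units with prednisolone and 787 with vehicle (−0.43 ± 0.20). Hsd17b7, the gene of the keto-reductase, had 837 and 144 units with prednisolone on its 2 probes, against 1827 and 301 units with vehicle (−1.04 ± 0.15). Nsdhl thus lay well inside 2-fold and Hsd17b7 just outside it.

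The last steps rearrange and reduce the ring. Ebp, the gene of the sterol isomerase, was the 1 enzyme gene above 0, with 14894 and 2334 units with prednisolone on its 2 probes, against 14804 and 2047 units with vehicle (0.15 ± 0.14). Sc5d, which encodes the sterol-C5 desaturase, had 2615 units with prednisolone and 3797 with vehicle (−0.49 ± 0.20). Dhcr7, the gene of 7-dehydrocholesterol reductase, had 453 units with prednisolone and 935 with vehicle, a difference of −0.997 ± 0.20 that lay just inside the 2-fold threshold. Along the chain the size of the difference went up and down from step to step, with Ebp and Idi1 nearest 0; after spike-in scaling Ebp (0.39) was farther from 0 than Nsdhl (−0.20), Sc5d (−0.25) and Sqle (−0.25).

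**Figure D3:**
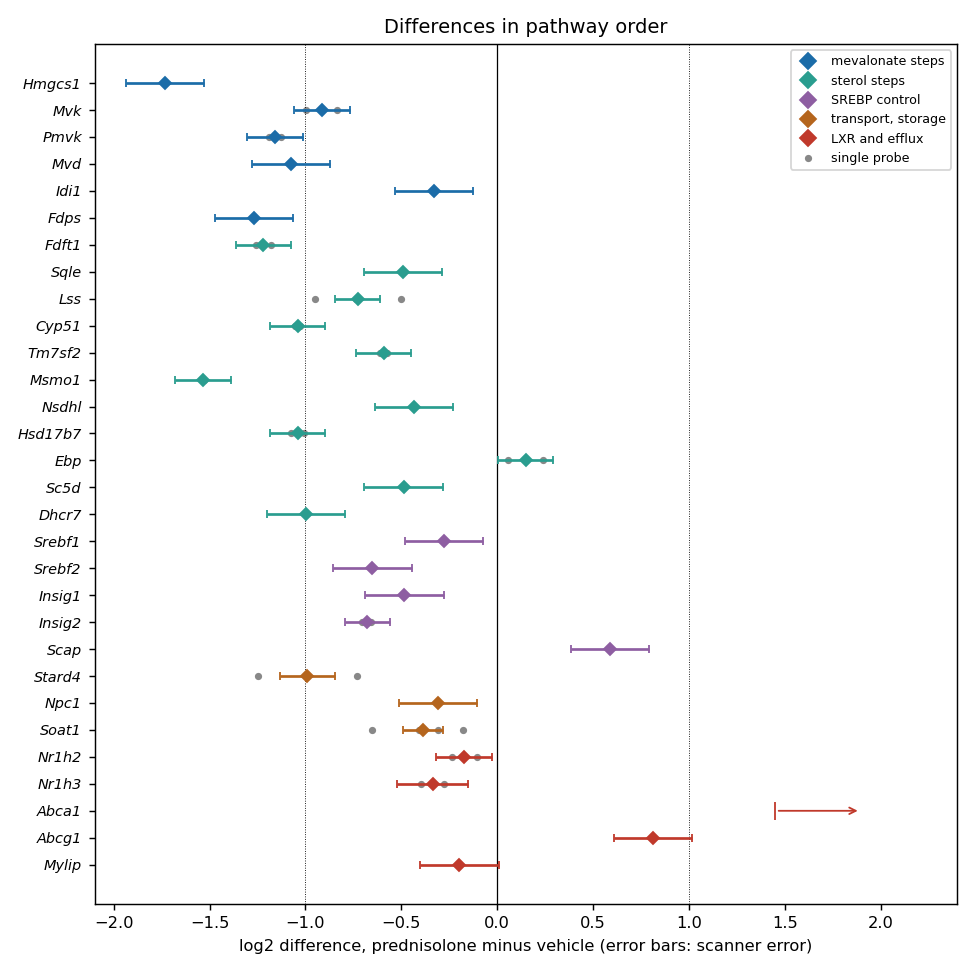
Diamonds give the log2 difference, prednisolone minus vehicle, of each gene in pathway order, coloured by role, with bars for the scanner software's error, and grey points give single probes. Dotted lines stand at a 2-fold difference; 8 enzyme genes lie left of the lower line, and the arrow at Abca1 marks a lower bound of 2.73-fold.

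Promoter sequences are shown for the 2 lowest enzyme genes and the highest. Whether their letters bear on the differences was not tested. They are taken from RefSeq (build GRCm38.p6) and cover 250 bases before to 50 bases after the gene start. Fdps, the third lowest enzyme gene, has no entry in the table, nor have Abcg1, Fdft1, Npc1, Sqle and Stard4. The windows are chr13:119690101-119690400 on the plus strand for Hmgcs1, chr8:64733529-64733828 on the minus strand for Msmo1 and chrX:8193463-8193762 on the minus strand for Ebp. Capitals mark matches, on either strand, to the sterol regulatory element TCACNCCAC that SREBP proteins bind, to the CCAAT box, which the factor NF-Y binds, and to the GC box GGGCGG, which Sp1 binds.
Hmgcs1: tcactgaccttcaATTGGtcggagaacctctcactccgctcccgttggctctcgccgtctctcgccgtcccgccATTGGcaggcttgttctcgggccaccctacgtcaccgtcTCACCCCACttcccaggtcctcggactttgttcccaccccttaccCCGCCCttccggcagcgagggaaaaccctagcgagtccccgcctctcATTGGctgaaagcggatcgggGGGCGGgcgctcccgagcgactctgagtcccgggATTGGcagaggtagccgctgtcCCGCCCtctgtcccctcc
Msmo1: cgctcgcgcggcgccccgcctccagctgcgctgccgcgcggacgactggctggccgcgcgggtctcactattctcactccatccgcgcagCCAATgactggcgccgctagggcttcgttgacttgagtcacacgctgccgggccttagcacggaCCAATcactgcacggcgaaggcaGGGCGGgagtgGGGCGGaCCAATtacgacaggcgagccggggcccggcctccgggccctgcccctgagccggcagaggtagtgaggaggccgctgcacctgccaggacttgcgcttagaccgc
Ebp: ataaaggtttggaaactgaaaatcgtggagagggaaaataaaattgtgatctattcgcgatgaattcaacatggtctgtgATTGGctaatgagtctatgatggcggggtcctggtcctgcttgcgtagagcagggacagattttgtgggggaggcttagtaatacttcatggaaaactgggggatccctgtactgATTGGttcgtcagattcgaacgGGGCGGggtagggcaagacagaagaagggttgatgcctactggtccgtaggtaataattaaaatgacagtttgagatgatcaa

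The Hmgcs1 window held the sterol regulatory element once, at bases 114 to 122 counted from its 5′ end, with 4 CCAAT boxes and 3 GC boxes. The Msmo1 window held 3 CCAAT boxes and 2 GC boxes, and the Ebp window held 2 CCAAT boxes and 1 GC box. Neither the Msmo1 nor the Ebp window held a match to these letters of the sterol element. Among 25 cholesterol genes with an entry, 1 (4%) had the sterol element in at least 1 window, against 1.44% of all 27025 genes in the table. CCAAT boxes were found in 20 of the 25 (80.0%), against 41.1% of all genes, and GC boxes in 22 of the 25 (88.0%), against 38.2%. Counted by window, CCAAT boxes stood in 21 of 34 and GC boxes in 26 of 34, against 37.4% and 35.7% of all windows. The 27025 genes were not limited to those measured on the arrays. The 3 motifs do not overlap in the windows printed. They were chosen after the values were seen, the 25 genes have 34 windows, and a match is a description of the letters and not of binding.

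Among the 5 genes that control the enzymes, 4 were lower and Scap was higher, and none was 2-fold apart. Of all genes, 49.8% lay below 0, 6.73% were at least 2-fold lower and 5.84% at least 2-fold higher. Srebf2, the gene of SREBP-2, the main activator of sterol enzyme genes, had 1181 units with prednisolone and 1920 with vehicle (−0.65 ± 0.20). Srebf1, the gene of SREBP-1, which mainly serves fatty acid synthesis, had 9344 units with prednisolone and 11730 with vehicle (−0.28 ± 0.20, and −0.04 after spike-in scaling).

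Both retention genes were lower. Insig1, itself a known target of SREBP proteins, had 150.1 units with prednisolone and 217 with vehicle (−0.48 ± 0.21). Insig2 had 557, 267 and 260.0 units with prednisolone on its 3 probes, against 915, 437 and 438 units with vehicle (−0.68 ± 0.12), and the probes lay between −0.70 and −0.66. Scap, the gene of the escort protein, went the other way, with 5870 units with prednisolone and 4045 with vehicle (0.59 ± 0.20, percentile 85.5 of all genes).

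The genes of sterol transport and storage lay below 0, as 49.8% of all genes did, with a median of −0.39 over 3 genes. Stard4 encodes a carrier that moves cholesterol between membranes and is a known target of SREBP-2. Its brighter probe had 1720 units with prednisolone and 4228 with vehicle (−1.25), and its dimmer probe 212 and 365 units (−0.73). The mean of −0.99 ± 0.14 lay just inside 2-fold, and the brighter probe alone, which was also the one with no flag, lay outside it. Npc1, which encodes the protein that lets cholesterol leave the lysosome, had 2289 units with prednisolone and 2932 with vehicle (−0.31 ± 0.20, and −0.07 after spike-in scaling). Soat1, the gene of the enzyme that esterifies cholesterol for storage, had 897 units with prednisolone and 1151 with vehicle on its brightest probe, and its 4 probes ran from −0.65 to −0.18 (mean −0.39 ± 0.10).

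The exporter genes on the list were higher with prednisolone. Abcg1, whose transporter hands cholesterol to high-density lipoprotein, had 3353 units with prednisolone and 1976 with vehicle, a difference of 0.81 ± 0.20 (1.76-fold higher, percentile 91.3 of all genes). It was 1.05 after spike-in scaling. Abca1, whose transporter hands cholesterol to apolipoprotein A-I, was faint, with 33.8 units with prednisolone, well above background, and 8.04 units with vehicle, not well above it. Set against the lowest vehicle signal that was well above background, 12.8 units, Abca1 was at least 2.73-fold higher. After normexp background correction this bound was 1.40-fold. Its other probe did not stand well above background with prednisolone or with vehicle. The myeloid markers given above, of cells in which both exporters are abundant, had a summed signal of 1.42 with prednisolone and 3.69 with vehicle once Itgam, the brightest, was left out, and their part in the values of Abcg1, Abca1 and Nr1h3 was not tested.

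The LXR genes themselves differed little. Nr1h2, the gene of the widely expressed LXRβ, had 5991 units with prednisolone and 6677 with vehicle on its brighter probe (mean over 2 probes −0.17 ± 0.15). Nr1h3, the gene of LXRα, was faint, with 38.5 and 22.0 units with prednisolone, against 48.3 and 30.0 units with vehicle (−0.34 ± 0.19). Mylip, an LXR target, had 256 units with prednisolone and 304 with vehicle (−0.20 ± 0.20). Nr1h2 and Mylip turned sign after spike-in scaling, to 0.07 and 0.04, so no direction can be given for them. Of the LXR targets on the list, Abcg1 and Abca1 were higher, Srebf1, which LXR also switches on, was −0.28 ± 0.20, and Mylip had no settled direction.

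Where a gene had several probes, they gave the same direction. Of 14 cholesterol genes with more than 1 usable probe, all 14 had every probe on one side of 0, and the median range between a gene's probes was 0.10, with the widest, 0.51, at Stard4. Outlier flags fell on 12 of the 49 spots, in 10 genes, and each of them marked the local background and none the spot itself. The 10 genes were Fdps, Fdft1, Lss, Cyp51, Tm7sf2, Msmo1, Hsd17b7, Insig2, Stard4 and Soat1. For Fdps, Fdft1 and Tm7sf2 every spot was flagged on at least 1 array. The local background of the 49 spots ran from 23 to 35 units.

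Related sterol genes outside the list were compared with the enzyme genes by their counts and medians. Among 10 other genes of SREBP processing and sterol sensing, 0 were 2-fold apart, close to the shares of all genes (6.73% lower and 5.84% higher). Their median was 0.19 (0.43 after spike-in scaling, with 1 at least 2-fold higher, where 9.72% of all genes were on that scale). The one farthest from 0 was Erlin1, an endoplasmic reticulum scaffold protein gene, with 914 units with prednisolone and 493 with vehicle (0.94 ± 0.20). The branch that uses farnesyl pyrophosphate for other products had a median of 0.28 over 15 genes (0.52 after spike-in scaling). Of the 15, 12 lay above 0 and 3 (20.0%) below it, where 49.8% of all genes lay below 0. The branch member at least 2-fold higher was Pdss1, a subunit of the synthase of the ubiquinone side chain. Pdss1 had 949 units with prednisolone and 346 with vehicle (1.51 ± 0.20). Its only spot carried a flag of the local background on both arrays. Leaving out flagged spots gave 0 of 11 genes at least 2-fold higher, where 5.76% of all genes were. Spike-in scaling gave 2 of the 15, where 9.72% of all genes were at least 2-fold higher. In that branch 0 genes were at least 2-fold lower, where 6.73% of all genes were. Rabggtb, a subunit of the enzyme that prenylates Rab proteins, was chosen after its value was seen and lay just inside at −0.97, and outside with no scaling between arrays (−1.02) and with quantile normalization (−1.01). Whether the branch differs from the sterol enzymes was not tested.

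Other genes of sterol traffic went both ways, with a median of −0.11 over 17 genes (0.13 after spike-in scaling). Vldlr, a lipoprotein receptor gene, was lower than any of the 29 cholesterol genes, with 155 units with prednisolone and 1017 with vehicle on its brighter probe (−2.66 ± 0.21, 6.33-fold lower). Its other probe had 13.1 units with prednisolone, not well above background, and 94.1 units with vehicle. Lrp8, another lipoprotein receptor gene, named after its values were seen, was higher, with 184, 104 and 58.2 units with prednisolone on its 3 probes, against 70.6, 69.9 and 32.1 units with vehicle (mean 0.99, and 1.22 after spike-in scaling). That scaling put 2 of the 17 genes at least 2-fold higher, where 9.72% of all genes were. Soat2, which esterifies cholesterol as Soat1 does, had 550.1 and 48.2 units with prednisolone on its 2 probes, against 1167 and 110.1 units with vehicle (−1.09 ± 0.15), and was within 2-fold after normexp (−0.82) and after spike-in scaling (−0.85). It should not be taken for Acat2, although its enzyme is often called ACAT2.

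Among 8 other partners and targets of LXR the median was 0.08 (0.32 after spike-in scaling). Rxra, the gene of the partner receptor RXRα, had 7823 units with prednisolone and 1619 with vehicle on its brighter probe (2.32) and 53.0 and 61.5 units on its dimmer probe (−0.16), so its probes disagreed and its mean of 1.08 ± 0.15 describes neither. Smpdl3a, placed on this list as a target, had 1229 units with prednisolone and 2872 with vehicle (−1.17 ± 0.20, and −0.94 after spike-in scaling). Whether LXR acts on Smpdl3a in these mouse cells was not tested. Among 7 genes of oxysterol synthesis and sensing, 4 were measured and 0 were 2-fold apart, close to the shares of all genes (6.73% lower and 5.84% higher). The median of the 4 was −0.42 (−0.18 after spike-in scaling, with 2 above 0). Hsd3b7, a dehydrogenase of bile acid synthesis from oxysterols, was farthest from 0, with 256 units with prednisolone and 137 with vehicle (0.95 ± 0.21, and 1.19 after spike-in scaling). Ch25h, Cyp27a1 and Cyp7b1, named after their values were seen, encode enzymes that make or break down oxysterols, and none of them stood well above background with prednisolone or with vehicle.

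**Figure D4:**
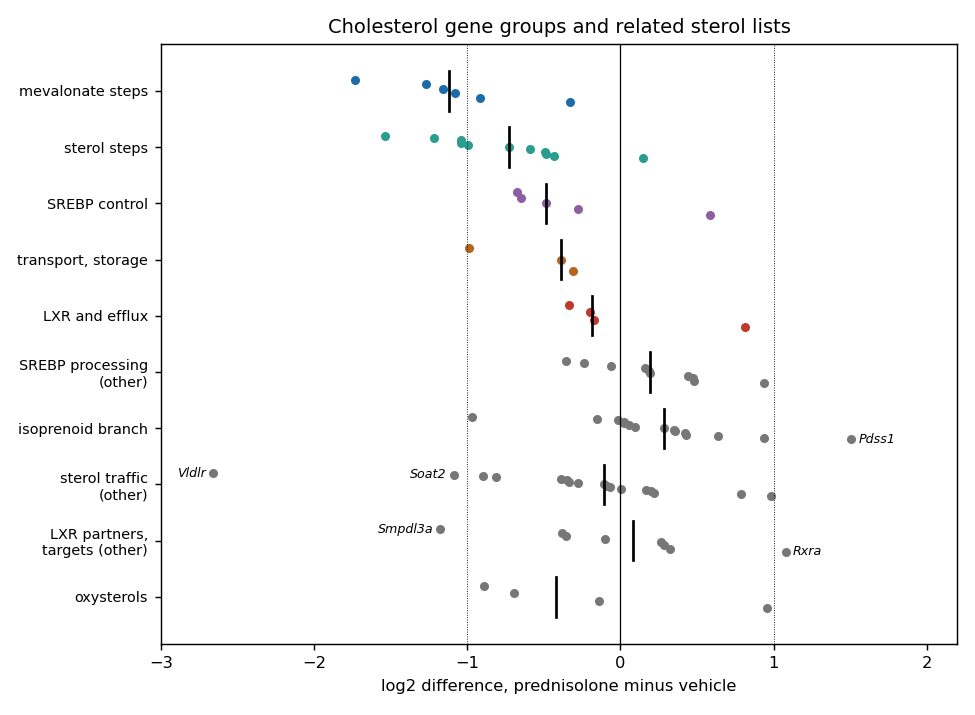
Each point is 1 gene's log2 difference, prednisolone minus vehicle, in the 5 roles of the cholesterol genes (coloured) and in 5 related lists (grey), with a black bar at the median of each list and dotted lines at a 2-fold difference. The medians run from −1.12 for the mevalonate steps to 0.28 for the isoprenoid branch, and genes of the related lists at least 2-fold apart are named.

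**Figure D5:**
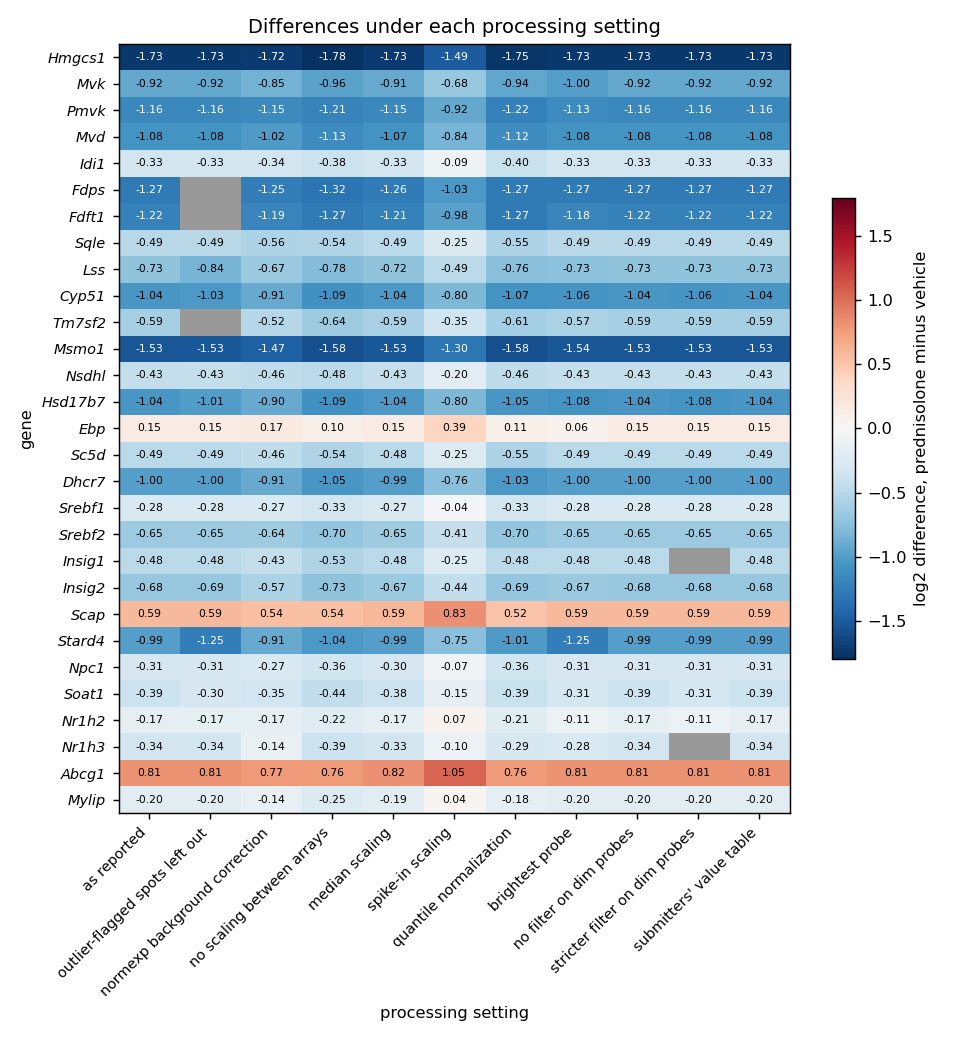
Each cell gives a gene's log2 difference, prednisolone minus vehicle, under the processing setting named below the column (the first is the value reported above), with blue for lower and red for higher; grey cells had no usable probe. The spike-in scaling adds 0.24 to every value and leaves all enzyme genes but Ebp below 0, and Stard4 reads −1.25 where its brighter probe stands alone.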

How the data were processed

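The scanner files hold, per the file headers, intensity values written by Agilent Feature Extraction 12.0.3.1 from a 1-colour Cy3 array. The deposited processed signal was background-subtracted and detrended within each array and not scaled between arrays. The submitters' value table was found to be the deposited intensity times 1 constant per array, 0.858 for prednisolone and 0.792 for vehicle, on a linear, uncentred scale with column medians of 16.4 and 16.2; the sources used here do not say how the constants were chosen. Of 59305 non-control spots, 53.5% were well above background on each array and 0 were saturated. The number of arrays limits the precision.

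Here log2 of the processed signal was taken minus the array's 75th percentile (386.9 and 400.4 units for prednisolone and vehicle). Spots with outlier flags were kept. Spots of a probe were averaged, then the gene's probes well above background on both arrays. Accessions without version were matched to RefSeq (GRCm38.p6), which named 33767 of 56605 probes; the headers name mm9, so gene coordinates from it are not given. For a gene measured on 1 array only, the dim side was set to the array's lowest signal well above background, or to the probe's own signal if higher, to give a bound. Probes printed 10 times (281 probes) had a median SD of 0.028 for the difference. The genes, lists and their roles were chosen with earlier results of these data known. The text names all listed cholesterol genes; of each related list those at least 2-fold apart, or else the one farthest from 0; of each marker list the brightest gene and those at least 2-fold apart; and 5 glucocorticoid targets. Promoters follow the 3 lowest and the highest enzyme gene. The code was run on simulated data whose shifts were well past the 2-fold threshold. That run checks the computation only, and covers neither the spread between cultures nor genes faint on 1 array. Tools were Python 3.11.15, pandas 2.3.3, R 4.3.3 and limma 3.58.1 (normexp with an offset of 50, quantile normalization).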

Additional observations from a re-analysis of the deposited data

How the results depend on the processing

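No paired analysis was possible because there was 1 array per group. For the 29 cholesterol genes, 253 of 285 single values under other processing settings moved by no more than their scanner error, and 32 moved further, 29 of them with spike-in scaling. Much of that count was fixed by the settings. The submitters' table is the same signal times a constant, and median scaling or no scaling shifts every gene alike by less than its error. Spike-in scaling adds 0.24 to every gene, more than the largest error of 0.21. The count therefore says little about how stable the values are. Of the 29 genes, 27 had 1 sign under every setting; Nr1h2 (0.07) and Mylip (0.04) turned sign with spike-in scaling. The 8 genes at least 2-fold apart became 17 at 1.5-fold and 4 after spike-in scaling. That scaling gave medians of −0.35 for all cholesterol genes, −0.76 for the enzymes, −0.88 for the mevalonate steps, −0.49 for the sterol steps, −0.25 for SREBP control, −0.15 for transport and storage, and 0.054 for LXR and efflux. It also moved the higher share of all genes called to 70.3%, against 46.5% in the values reported. Over all genes, 1622 were at least 2-fold apart, with 3844 at 1.5-fold, 3381 without the filter on dim probes, 878 after normexp and 771 with a stricter filter. Normexp left 6 cholesterol genes at least 2-fold lower, without Cyp51 (−0.91) and Hsd17b7 (−0.90), where 3.53% of all genes were at least 2-fold lower. Leaving out flagged spots left 7 lower of 26 genes, where 6.62% of all genes were, with no value for Fdft1, Fdps and Tm7sf2. With 1 array per group, the spread between cultures is unknown, and the faint signals of Abca1 and Nr1h3 limit what can be said of them.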

Other observations

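Fatty acid synthesis, which SREBP proteins also serve, went both ways. Of 12 genes measured, 3 were at least 2-fold lower with prednisolone and 2 at least 2-fold higher, where 6.73% and 5.84% of all genes were, and the median was −0.07 (0.17 after spike-in scaling). Fads2, a fatty acid desaturase gene, had 506 units with prednisolone and 1666 with vehicle on its brighter probe (−1.63 ± 0.15). Scd1, the gene of the desaturase that makes oleic acid, had 668 units with prednisolone and 1887 with vehicle (−1.45 ± 0.20). Acss2, which makes acetyl-CoA from acetate, had 462 units with prednisolone and 1243 with vehicle on its brighter probe (mean −1.27 ± 0.15, and −0.95 after normexp).

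Higher with prednisolone were Elovl6, an elongase gene, and Me1. Elovl6 had 5535 units with prednisolone and 2141 with vehicle (1.42 ± 0.20). Me1, the gene of the cytosolic malic enzyme, which makes NADPH, had 1182 units with prednisolone and 74.0 with vehicle (4.05 ± 0.21, 16.5-fold higher, and 3.18 on the log2 scale after normexp). Its other probe had 358 units with prednisolone and 10.7 with vehicle, where it was not well above background. These genes were chosen with earlier results known, and no difference was tested.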
